A study of Drosophila melanogaster with 12 samples.

Results

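The transcriptome of Drosophila S2 cells depleted of S-adenosylmethionine synthetase, the product of Sam-S, was compared with that of cells given a control double-stranded RNA (dsRNA). S2 is an established wild-type line from late embryos with features of hemocytes, the blood cells of the fly. The control group took up dsRNA against GFP, a gene that flies lack, and the knockdown group took up dsRNA against Sam-S, each for 4 days before total RNA was isolated. Each group had 3 samples (6 of the 12 in the series, counting both groups), which the labels describe as combined, so the table holds 1 pooled FPKM (fragments divided by transcript length and by the mapped total) per gene and group. The comparison takes the 7957 of 14540 gene rows that the authors marked as tested, with the log2 of the knockdown over the control FPKM as the measure. Of these rows, 7588 carry a single gene symbol and 369 merge several overlapping genes, whose reads cannot be told apart.

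S-adenosylmethionine (SAM) is made from methionine and ATP and gives its methyl group to histones, other proteins, RNA, DNA and lipids. The S-adenosylhomocysteine left behind inhibits methyltransferases, and it is hydrolysed to homocysteine, which is remethylated to methionine or drained into cysteine synthesis. SAM also feeds polyamine synthesis, and in flies a SAM-binding protein, Samtor, connects its level to the growth kinase complex TORC1.

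Most genes moved little. The median log2 fold change was -0.02, with an interquartile range from -0.13 to 0.10, and the median FPKM was 24.97 in the control and 24.98 in the knockdown. A row was called when its q was under 0.05 in the authors' deposited table, which gave 7 higher rows (0.088% of those tested) and 6 lower rows (0.0754%), together 13 (0.163%). All 13 had p = 5e-05, the smallest p in the authors' deposited table, and q = 0.0306, the smallest q there. The next row, CG15695, stood at 36.8 FPKM in the control and 60.3 in the knockdown with the authors' deposited table giving q = 0.0568. At the unadjusted p under 0.05 of the authors' deposited table, 223 rows passed (2.8%), where 5% of the rows tested would be 398; 118 were higher (1.48%) and 105 lower (1.32%). These counts, the 45.2% of rows with a positive log2 fold change, and the 54.8% with a negative one, are the background for every gene group below. No row is said to have risen or fallen on the unadjusted p alone.

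The size of change that could be called followed the level of expression. The p-values of the authors' deposited table correspond to a median standard error of 0.22 on the log2 scale (7784 rows), so a typical row needed a log2 fold change of 0.43 for an unadjusted p of 0.05 and 0.90 for the smallest p. Of 10 equal bins by mean FPKM, the lowest had a standard error of 0.55 and the top bin 0.18. The share of rows above 0 was 41.2% in the lowest bin and 57.8% in the top bin, so small positive shifts in highly expressed groups are to be read beside that value. With the replicates pooled, the files do not show how far these p-values rest on differences among the samples of 1 group.

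**Figure D1:**
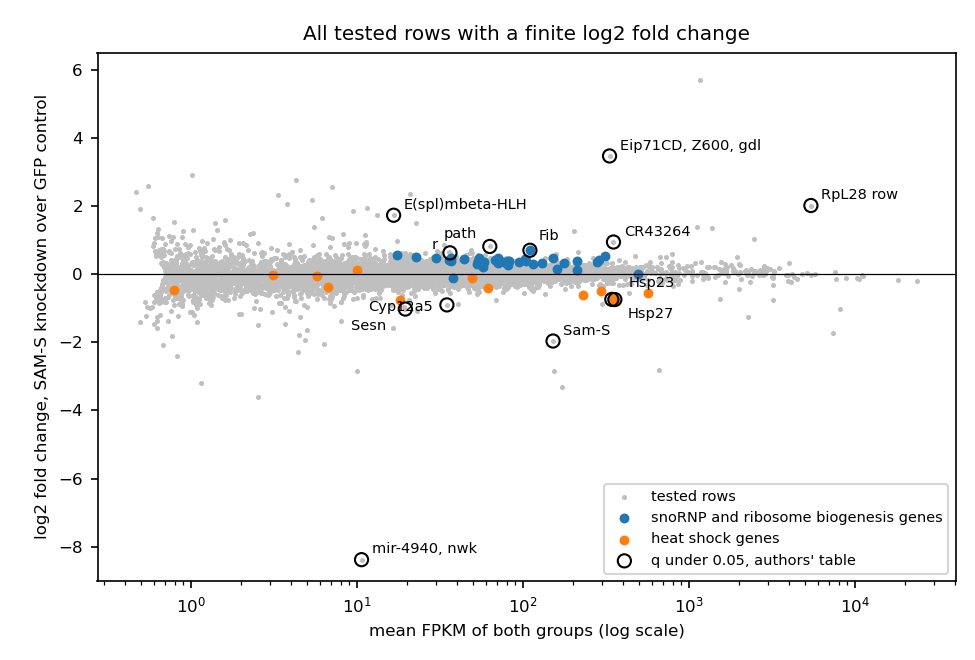
Log2 fold change of the SAM-S knockdown over the GFP control (vertical axis) against the mean FPKM of both groups (horizontal log axis) for all tested rows with a finite value, in gray; blue points are snoRNP and ribosome biogenesis genes, orange points heat shock genes, and open circles the 13 rows with q under 0.05 in the authors' deposited table. Of the 36 blue points 34 lie above 0, and of the 13 orange points 12 lie below it.

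Markers of cell types were checked against the label. Of 24 hemocyte markers 22 were tested, at control levels from 0.783 FPKM for Hml upward, and gcm and lz were not tested. Nplp2 stood at 25039 FPKM in the control and 21859 in the knockdown, and the receptor gene He at 783 and 700, while the GATA factor gene srp, merged with CR44133, stood at 86.2 and 94.2. Of 5 neuronal markers, elav was the sole tested gene, at 3.23 and 3.15 FPKM. Of 7 muscle markers, Mef2 alone was tested (15.5 and 16.0), and of 6 genes listed for fat body and gut 2 were tested, CG5322 (10.9 and 13.8) and Rfabg (2.14 and 1.63). CG5322 was not among the markers planned for these tissues, and its use as one was not checked. Since RNA of whole cultures was measured, fewer cells with a transcript and less of it per cell cannot be told apart.

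Sam-S itself was depleted. It stood at 242 FPKM in the control and 62.0 in the knockdown, 0.257 of the control level. The log2 fold change was -1.96, at q = 0.0306 of the authors' deposited table. Sam-S lies at the left end of chromosome 2L (106903 to 114432, build dm3). The 5 tested rows among its 3 nearest rows on either side stood between -0.11 and 0.03 (Zir -0.06, CG11377 0.03, Nhe1 -0.11, the row of CG11455 and CG3436 -0.03, Gs1 0.02).

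Within the methionine cycle no enzyme gene other than Sam-S was called, and Ahcy13 had the largest value among the 7 tested. Ahcy13, which hydrolyses S-adenosylhomocysteine, stood at 155 FPKM in the control and 213 in the knockdown, a log2 fold change of 0.46 at unadjusted p = 0.00665 of the authors' deposited table, and it was not called. Cbs, which condenses homocysteine with serine, stood at 30.1 and 35.1 (0.22), and Eip55E, which cleaves cystathionine, at 93.5 and 104 (0.15). The homocysteine methyltransferase genes CG10623 and CG10621 had -0.13 and -0.24, and CG6188, for the glycine N-methyltransferase that uses up SAM, was near the detection limit at 1.45 and 1.26 FPKM (-0.20). CG9977, related to Ahcy13, had 0.05. Across the 14 tested members, 9 were above 0 and the median was 0.02, beside -0.02 for all rows.

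The called row of the methionine list was that of methionine repair. Eip71CD encodes methionine sulfoxide reductase A, which returns oxidised methionine to methionine. Its row, merged with Z600 and gdl on chromosome 3L (15502161 to 15506302, dm3), stood at 55.0 FPKM in the control and 610 in the knockdown, an 11.1-fold rise at q = 0.0306 of the authors' deposited table. Which of the 3 overlapping genes supplied these reads cannot be told from the table. The neighbouring tested rows CG7841, CG7857 and CG7272 had 0.26, 0.17 and -0.01 on the left, and the weakly expressed mex1 and yellow-k had -0.81 and -0.26 on the right. SelR, which reduces the other stereoisomer of methionine sulfoxide, stood at 23.7 and 24.1 FPKM (0.02). The salvage genes, which recycle the methylthio group released by polyamine synthesis, had values from -0.15 (CG32068) to 0.31 (CG11134), with CG12173, the row of CG11334 and lox, and CG4802 at 0.01, 0.01 and -0.12.

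No gene of polyamine, folate or phospholipid synthesis was called. In polyamine synthesis, SamDC, which decarboxylates SAM, stood at 60.1 and 54.7 FPKM (-0.14), SpdS, for spermidine synthase, at 36.7 and 46.3 (0.34), CG4300 at 49.7 and 53.2 (0.10), and Oda, for ornithine decarboxylase antizyme, at 542 and 491 (-0.14). Of 6 tested folate genes 5 were above 0, with CG2543 at 0.23 and CG3011 at 0.15, and Ts, for thymidylate synthase, had -0.17. Among 12 phospholipid synthesis genes the median was -0.05. Cct2, for an enzyme that makes the CDP-choline precursor of phosphatidylcholine, stood at 12.4 FPKM in the control and 7.57 in the knockdown (-0.71), at unadjusted p = 0.00655 of the authors' deposited table, whereas the far more abundant Cct1 of the same activity had -0.06. The choline or ethanolamine kinase genes CG2201 and eas had -0.31 and -0.29, and Pect, for the ethanolamine branch, had 0.12.

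The group with the highest median was the machinery that makes ribosomes. Small nucleolar RNPs (snoRNPs) guide ribose methylation and pseudouridylation of ribosomal RNA, and all 8 tested genes for their core proteins were above 0, with a median of 0.40. Fib, for fibrillarin, the methyltransferase that takes its methyl groups from SAM, lies on chromosome 2R (18960420 to 18962243, dm3). It stood at 83.9 FPKM in the control and 137 in the knockdown, a rise of 0.70 on the log2 scale at q = 0.0306 of the authors' deposited table. Its partners in the methylating box C/D particle were also higher in the knockdown, though not called: hoip at 257 and 370 (0.53), nop5 at 127 and 178 (0.48) and Nop56 at 183 and 239 (0.39). Their unadjusted p were 0.0033, 0.0215 and 0.0249 in the authors' deposited table.

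The genes for proteins of the pseudouridylating box H/ACA particle, which uses no SAM, were also above 0. Their values ran from 0.31 to 0.42, beside 0.39 to 0.70 for the box C/D proteins, and the difference was not tested. NHP2 stood at 158 FPKM in the control and 197 in the knockdown (0.32), CG4038, for Gar1, at 103 and 128 (0.31), and CG7637, for Nop10, at 242 and 314 (0.37). The row of Nop60B, for the pseudouridine synthase, merges it with 6 snoRNA genes and stood at 245 and 329 (0.42). None of these 4 had an unadjusted p under 0.05 in the authors' deposited table.

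Genes for RNA polymerase I and for ribosome assembly stood alike. Of 28 tested, 26 were above 0, the median was 0.37, and 14 (50%) had an unadjusted p under 0.05 in the authors' deposited table, all higher; none was called. The polymerase subunit genes RpI135, RpI1 and RpI12 stood at 30.7 and 43.0 FPKM (0.49), 49.3 and 61.9 (0.33), and 14.1 and 20.9 (0.56) in control and knockdown, whereas the initiation factor gene Tif-IA had 0.16. Among processing factors, CG12301 stood at 25.1 and 35.1 FPKM (0.48) and CG1542, the counterpart of yeast Ebp2, at 59.2 and 82.2 (0.47), with unadjusted p = 0.00525 and 0.0083 in the authors' deposited table. Nmd3, the adapter that exports the large subunit, was the member at the list's median, at 47.0 and 61.0 FPKM (0.38).

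The exceptions within the list were few. CG8801, for a GTPase of large-subunit assembly and the most abundant member, stood at 495 FPKM in the control and 494 in the knockdown, and Nop17l at 39.3 and 36.4 (-0.11). These and the other members beyond the naming rule, such as CG4364, the pescadillo counterpart, at 203 and 221 (0.12), were picked out after their values were seen. Over both lists, 34 of 36 tested genes (94.4%) were above 0 beside 45.2% of all rows, and 18 (50%) were higher at the unadjusted p under 0.05 of the authors' deposited table beside 1.48% of all rows. These 18 make up 15.3% of the 118 higher rows. The snoRNP list had a median level of 194 FPKM, in the top expression bin. There 57.8% of all rows were above 0 and 17 of 796 were higher at that p. The biogenesis list had 63.2 FPKM, in the bin where 45.5% were above 0 and 26 of 795 were higher at that p. Fib was the sole gene called among the 36, and the median standard error that their p-values correspond to was 0.18, beside a median change of 0.38. In the authors' deposited table Fib had a test statistic of 2.24 at p = 5e-05, and RpI135 had 1.62 at p = 0.0053. Both statistics are smaller than the normal quantile of their p, so an error taken from them would be larger.

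**Figure D2:**
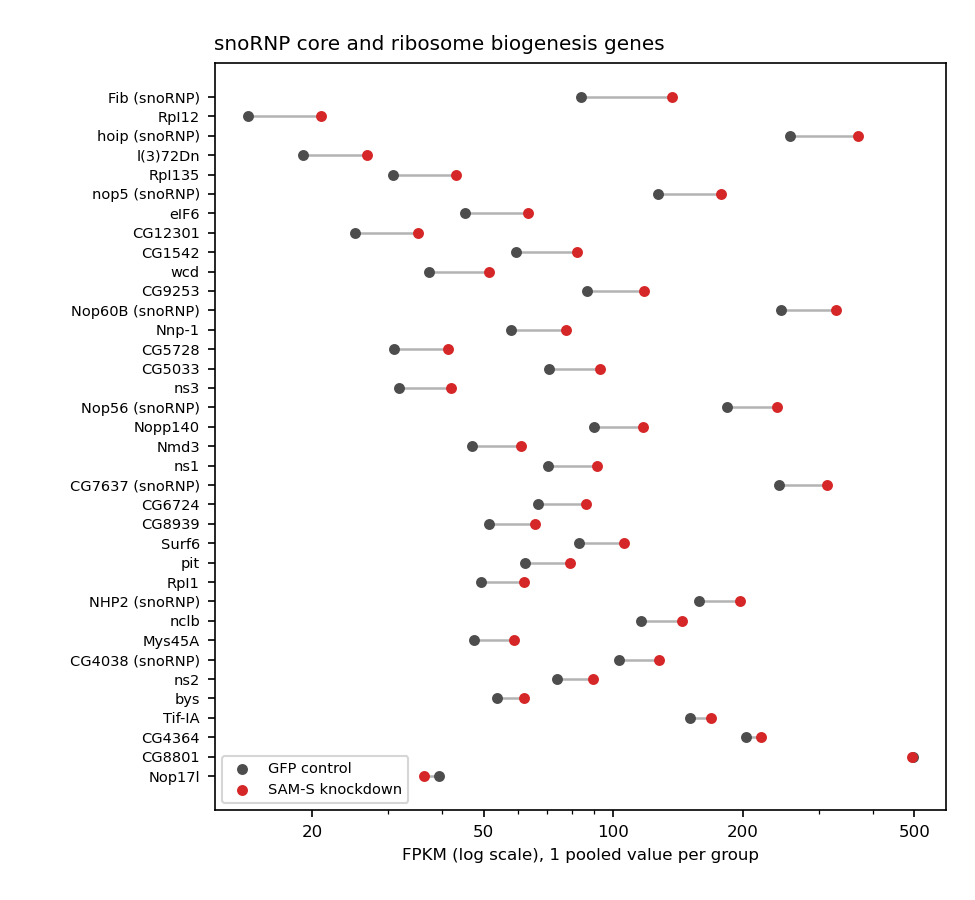
FPKM (horizontal log axis) of each tested gene of the snoRNP core and of RNA polymerase I and ribosome biogenesis in the GFP control (gray) and the SAM-S knockdown (red), 1 pooled value per group without error, ordered by log2 fold change. The knockdown point lies to the right in 34 of 36 genes, and CG8801 and Nop17l are the exceptions.

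The other knockdowns of the series used dsRNA against Sin3A, for the scaffold of a histone deacetylase complex, alone or with Sam-S dsRNA. They share the GFP control of this comparison, so their values are set side by side without a test. In the samples labelled SIN3 knockdown the Sin3A mRNA itself was not called (67.9 FPKM in the control and 61.7). In those labelled double knockdown it was not called either (68.5 and 64.7), so directions there rest on the label as far as Sin3A is concerned. Sam-S was higher in the samples labelled SIN3 knockdown, at 240 FPKM in the control and 484 (1.01, q = 0.00172 in the authors' deposited table). In those labelled double knockdown Sam-S stood at 243 and 91.2 (-1.41, q = 0.00157 in the authors' deposited table), beside -1.96 after SAM-S knockdown. The snoRNP list had a median of 0.40 after SAM-S knockdown, 0.04 in the samples labelled SIN3 knockdown and 0.42 in those labelled double knockdown. The biogenesis list had 0.37, -0.01 and 0.35, with 26, 13 and 26 of its 28 genes above 0. Fib had 0.70, 0.07 and 0.92, and hoip 0.53, -0.09 and 0.79. In the authors' deposited table of the samples labelled double knockdown Fib and hoip were both called, each with q = 0.00157.

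The snoRNAs themselves could not be followed. Of 107 tested rows of single snoRNA genes, 49 were above 0 and 56 had an absolute log2 fold change over 1, while 25 were listed at 0 in 1 of the groups, and none had an unadjusted p under 0.05 in the authors' deposited table (smallest 0.0676). Such short RNAs made up 66 of the 122 rows in the whole table with an absolute log2 fold change over 1. Of 13 tested rows that merge a host gene with snoRNAs, 10 were above 0, with a median of 0.26, and 3 were higher and 0 lower at the unadjusted p under 0.05 of the authors' deposited table. The 3 below 0 were those of Dys (-0.15), CG42564 (-0.11) and RpL3 (-0.07), none with such a p. The row of the host gene Uhg3 stood at 114 FPKM in the control and 158 in the knockdown (0.48), at unadjusted p = 0.0127 of the authors' deposited table, and that of Uhg2 at 146 and 184 (0.33). The row of RpL28 and 2 snoRNA genes (chromosome 3L, 3219156 to 3222960, dm3) was called, at 2149 and 8695 FPKM (2.02) at q = 0.0306 of the authors' deposited table. Whether the protein gene or its intron RNAs supplied the rise cannot be told from this merged row. In the SIN3 comparison a row of RpL28 alone stood at 2139 FPKM in the control and 4963 in the samples labelled SIN3 knockdown (1.21).

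Ribosomal proteins and the translation apparatus had smaller values than the factors that assemble ribosomes. Of 83 tested cytoplasmic ribosomal protein genes 57 were above 0, with a median of 0.06, and 3 were higher at the unadjusted p under 0.05 of the authors' deposited table. These were the RpL28 row, RpL8, at 597 and 850 FPKM (0.51), and the row of RpL13A and 2 snoRNA genes, at 692 and 885 (0.35). The median level of the list was 2468 FPKM and that of translation factors 213, both in the top expression bin, where 57.8% of all rows were above 0. Translation factors (25 of 32 above 0, median 0.06) had eIF6, which also belongs to the biogenesis list, as their highest value at 0.48. Aminoacyl-tRNA synthetases, which charge tRNAs, had 18 of 21 above 0 and a median of 0.12, with Aats-gly at 92.1 and 100.2 FPKM. No synthetase and no translation factor had an unadjusted p under 0.05 in the authors' deposited table.

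Heat shock genes stood at the opposite end. Small heat shock proteins hold unfolding proteins in solution, and the Hsp70 proteins refold them. Of 13 tested rows 12 were below 0, the median was -0.47, and 7 were lower at the unadjusted p under 0.05 of the authors' deposited table, 53.8% beside 1.32% of all rows. Hsp27 stood at 448 FPKM in the control and 268 in the knockdown, and Hsp23 at 429 and 257. Both fell by 0.74 on the log2 scale at q = 0.0306 of the authors' deposited table. They were the called members. Against the shared GFP control, the list had a median of -1.07 in the samples labelled SIN3 knockdown and -2.50 in those labelled double knockdown. Hsp27 had -1.10 and -2.74 there, and Hsp23 -1.36 and -2.53.

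Both genes lie in a cluster at 67B on chromosome 3L. Hsp23 spans 9374982 to 9375865 and Hsp27 spans 9377163 to 9378382 (dm3). Within the same cluster, Hsp26 stood at 671 FPKM in the control and 457 in the knockdown (-0.55), and the row of Hsp22 and Hsp67Bb at 278 and 182 (-0.61), with unadjusted p = 0.00185 and 0.00045 in the authors' deposited table. The weakly expressed Hsp67Ba and Hsp67Bc had -0.47 and -0.02. The genes flanking the cluster stood otherwise: CG4452 at -0.10, Fdxh at 0.38, CG4080 at -0.07 and eIF-4E at 0.01. CG14207, a small heat shock gene on another chromosome, stood at 51.6 and 47.5 FPKM (-0.12).

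Among the inducible Hsp70 family, Hsp68 stood at 348 FPKM in the control and 245 in the knockdown (-0.50), Hsp70Bc at 22.9 and 13.5 (-0.76) and Hsp70Bb at 70.4 and 52.8 (-0.42), each with an unadjusted p under 0.05 in the authors' deposited table. Hsp70Ba and Hsp70Bbb had 0.12 and -0.05 and the row of Hsp70Aa and Hsp70Ab had -0.39, but the near-identical Hsp70 copies share reads and their separate values are uncertain. Constitutive chaperones were mostly slightly higher, with 14 of 19 above 0 and a median of 0.10. Their median level, 288 FPKM, lay in the top expression bin, where 57.8% of all rows were above 0. Cdc37, a kinase co-chaperone merged with CG12020, was their median member at 86.1 and 92.3 FPKM. Named after their values were seen, DnaJ-1 (338 and 265 FPKM, -0.35) and stv (-0.34), co-chaperones that heat shock induces, were the lowest, and Hsf, for the heat shock transcription factor, had -0.08. The 13 genes of the unfolded protein and integrated stress responses had a median of -0.01 and 6 above 0, with Atf6 at 28.4 and 28.1 FPKM.

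**Figure D3:**
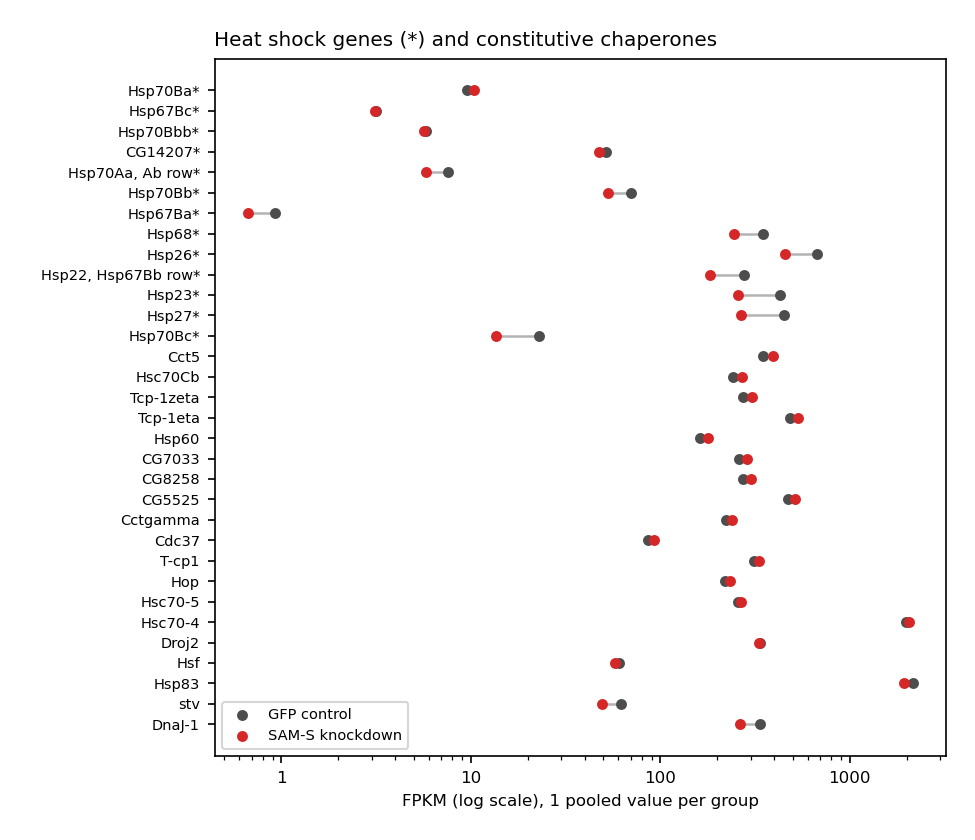
FPKM (horizontal log axis) of heat shock genes (asterisk) and constitutive chaperone genes in the GFP control (gray) and the SAM-S knockdown (red), 1 pooled value per group without error, ordered by log2 fold change within each list. In 12 of 13 heat shock rows the knockdown point lies to the left, and in 14 of 19 constitutive rows to the right.

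Amino acid sensing and uptake each held a called gene. Sesn, for sestrin, a stress-induced inhibitor of TORC1, lies on chromosome 2R (19601425 to 19620706, dm3). It stood at 26.2 FPKM in the control and 12.9 in the knockdown, 0.492 of the control level, and fell by 1.02 on the log2 scale at q = 0.0306 of the authors' deposited table. Against the shared control, Sesn had -1.75 in the samples labelled SIN3 knockdown and -2.50 in those labelled double knockdown. The other 12 genes of the TORC1 list had no unadjusted p under 0.05 in the authors' deposited table of the SAM-S knockdown. Samtor, CG3570 in the table, stood at 18.4 and 23.8 FPKM (0.37, at unadjusted p = 0.224 of the authors' deposited table), Tor at 31.6 and 29.6 (-0.10), S6k at 122 and 129 (0.09), and the remaining values ran from -0.18 for CG12090 to 0.01 for the row of Mipp2 and raptor.

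Of 12 tested amino acid transporter genes, path moved most upward. The product of path belongs to a family of lysosomal and plasma membrane amino acid transporters, and its mRNA stood at 45.8 FPKM in the control and 80.6 in the knockdown. This rise of 0.82 on the log2 scale had q = 0.0306 in the authors' deposited table, and its neighbours CG32037 and CG3408 had -0.37 and 0.05. The cystine and glutamate exchanger gene gb stood at 45.8 and 59.5 FPKM (0.38, unadjusted p = 0.0298 in the authors' deposited table). The leucine transporter genes mnd and JhI-21 stood at 161 and 197 (0.29) and at 425 and 484 (0.19), and CD98hc, for the heavy chain that carries such transporters, at 356 and 370 (0.05). Eaat1, for a glutamate transporter, went the other way at 3.51 and 1.73 FPKM (-1.02), at unadjusted p = 0.00335 of the authors' deposited table, and was not called. The remaining members were slif (0.63, under 1 FPKM in both groups), CG13384 (0.17), CG16700 (0.02), CG5535 (0.00), CG13248 (-0.16) and CG9413 (-0.22). After SAM-S knockdown and in the samples labelled SIN3 and double knockdown, path had 0.82, -0.37 and 0.03, against a shared control.

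Nucleotide synthesis held a called gene too. The gene r encodes the enzyme that carries out the opening steps of pyrimidine synthesis. It lies on the X chromosome (16549412 to 16570786, dm3) and stood at 28.6 FPKM in the control and 44.1 in the knockdown, a rise of 0.63 at q = 0.0306 of the authors' deposited table. Of 9 genes in its list 4 were above 0, and Dak1, nearest the median, stood at 79.2 and 78.5. Purine synthesis and salvage had 8 of 12 above 0 and a median of 0.06, with no unadjusted p under 0.05 in the authors' deposited table.

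The Notch pathway list held 1 called gene, a target of the pathway. E(spl)mbeta-HLH, for a repressor of the basic helix-loop-helix family that Notch activates, lies on chromosome 3R (21830768 to 21831745, dm3). It stood at 7.71 FPKM in the control and 25.6 in the knockdown, 3.32-fold higher at q = 0.0306 of the authors' deposited table. Of 11 genes of the complex, which also holds genes of the Bearded family, 3 were tested: E(spl)m3-HLH stood at 1.29 and 1.14 FPKM (-0.19) and E(spl)malpha-BFM at 0.823 and 0.461 (-0.84). The adjacent E(spl)mgamma-HLH and E(spl)mdelta-HLH were not tested and stood under 1 FPKM in both groups. Of 12 genes for the receptor, its ligands and their processing 1 was above 0, with a median of -0.13. Across the whole list of 19, the member nearest the median was Psn, for the catalytic subunit of the protease that cleaves Notch, at 83.5 and 76.9 FPKM (-0.12). E(spl)mbeta-HLH had -1.65 in the samples labelled SIN3 knockdown and 0.49 in those labelled double knockdown, beside 1.73 here.

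Secreted matrix genes of hemocytes stood apart from the hemocyte receptors. All 9 tested matrix genes were above 0, with a median of 0.24. Their median level was 158 FPKM, in the top expression bin, where 57.8% of all rows were above 0. Of the 9, 4 (44.4%) were higher at the unadjusted p under 0.05 of the authors' deposited table, beside 1.48% of all rows. Both collagen IV chains were among these 4: Cg25C stood at 168 FPKM in the control and 263 in the knockdown (0.65) and vkg at 126 and 190 (0.59). Ppn, for papilin, stood at 3.72 and 5.31 (0.51), and LanB2, for a laminin chain, at 11.4 and 15.3 (0.43). The other laminin chains LanA and LanB1 had 0.16 and 0.14. None of the matrix genes was called.

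Receptors and identity genes of hemocytes had 4 of 13 above 0 and a median of -0.08. Hml, for hemolectin, stood at 0.783 FPKM in the control and 0.465 in the knockdown (-0.75, or -0.28 with 1 added to each FPKM), at unadjusted p = 0.0225 of the authors' deposited table, and Pxn, for peroxidasin, at 152 and 147 (-0.04). The matrix genes had a median of -0.49 in the samples labelled SIN3 knockdown and -0.16 in those labelled double knockdown, where vkg had -0.67 and -0.06.

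Genes of the cell cycle stood mostly a little below 0. DNA replication genes had 7 of 46 above 0 (15.2% beside 45.2% of all rows) and a median of -0.13, and mitosis genes had 7 of 40 above 0 and a median of -0.12. Mcm2, a subunit of the replicative helicase and the median member, stood at 36.9 FPKM in the control and 33.6 in the knockdown, and pav, a kinesin of cytokinesis, at 54.2 and 50.2. The medians were close to each other in the helicase and origin genes (median -0.14), the polymerases, clamp and ligases (-0.11) and the regulators of entry into S phase (-0.12). In these lists no member had an unadjusted p under 0.05 in the authors' deposited table, and values of this size lie under the 0.43 that a typical row needed for it. Against the shared control, the replication list had -0.35 in the samples labelled SIN3 knockdown and -0.47 in those labelled double knockdown. The mitosis list had -0.47 and -0.57 there.

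Mitochondrial genes stood mostly above 0. Respiratory chain and ATP synthase genes had 53 of 62 above 0 (85.5%) and a median of 0.12, and mitochondrial ribosomal protein genes 56 of 75 and 0.12. All 8 tested genes of complex III and cytochrome c and all 8 of complex IV were above 0, with medians of 0.20 and 0.15. ATP synthase had 11 of 12 and 0.16, complex I had 23 of 30 and 0.07, and complex II had 3 of 4 and 0.06. RFeSP, for the Rieske iron-sulfur protein of complex III, stood at 43.6 FPKM in the control and 59.1 in the knockdown (0.44), at unadjusted p = 0.0472 of the authors' deposited table, and was the sole member to pass there. The respiratory list had a median level of 124 FPKM, in the expression bin where 48.6% of all rows were above 0, and the mitochondrial ribosomal list a median of 49.0 FPKM, in the bin where 45.5% were. The tricarboxylic acid cycle and pyruvate dehydrogenase genes had 10 of 20 above 0 and glycolytic genes 8 of 13, with medians of -0.02 and 0.01. Gapdh2 stood at 426 and 429 FPKM.

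**Figure D4:**
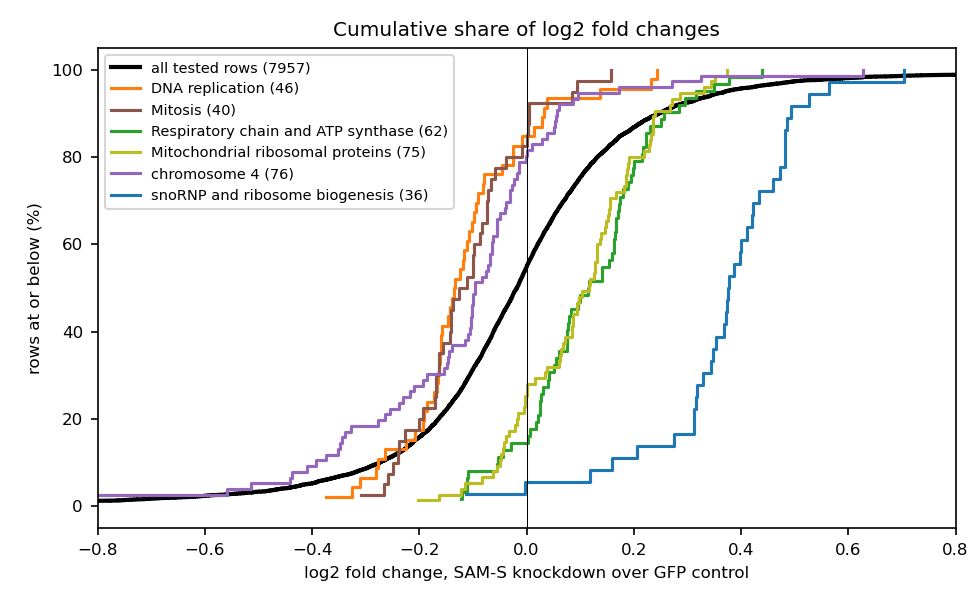
Cumulative share of rows (vertical axis, percent) at or below each log2 fold change (horizontal axis, SAM-S knockdown over GFP control) for all 7957 tested rows, 5 gene lists (snoRNP and ribosome biogenesis drawn as 1) and chromosome 4. The curves of DNA replication, mitosis and chromosome 4 lie to the left of all rows over most of their length, those of respiratory chain and mitochondrial ribosomal protein genes to the right, and that of ribosome biogenesis farthest to the right.

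Apart from Fib, counted above with the snoRNPs, no listed enzyme that methylates chromatin, protein or RNA was called. Histone methyltransferases, demethylases and their partners had 8 of 28 above 0 and a median of -0.05, with the methyltransferases at 2 of 13 and the demethylases at 1 of 7. The H4K20 methyltransferase gene pr-set7 stood at 24.4 FPKM in the control and 23.6 in the knockdown. Arginine and RNA methyltransferases had 10 of 13 above 0 and a median of 0.13. Art3, for a protein arginine methyltransferase, stood at 41.9 and 54.9 FPKM (0.39), at unadjusted p = 0.0283 of the authors' deposited table, and Mt2, for a tRNA methyltransferase, at 7.03 and 7.67 (0.13). The 10 genes of the SIN3 deacetylase complex ran from -0.11 to 0.11 with a median of 0.02, and Rpd3, its deacetylase, stood at 103 and 104 FPKM.

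The small chromosome 4 stood below the other arms. Of its 76 tested rows 15 were above 0 (19.7%), with a median of -0.10, while the large arms ran from 44.2% to 47.3% above 0 with medians from -0.03 to -0.01. The 47 tested rows on heterochromatin scaffolds lay between, with 40.4% above 0 and a median of -0.07. Among chromosome 4 rows with at least 1 FPKM in both groups, 14 of 74 were above 0. At the unadjusted p under 0.05 of the authors' deposited table, 5 of the 76 were lower and 0 higher, beside 1.32% lower and 1.48% higher of all rows. The arm's median level was 66.3 FPKM. In that expression bin 45.5% of all rows were above 0, and 8 of 795 were lower and 26 higher at that p. None of the chromosome 4 rows was called. The row with the smallest p was yellow-h, of the yellow gene family, at 52.9 FPKM in the control and 28.7 in the knockdown (-0.88, at q = 0.0796 of the authors' deposited table). Named after their values were seen, CG31997 stood at 517 and 351 FPKM (-0.56), plexB, for a semaphorin receptor, at 90.8 and 66.9 (-0.44), and mav, for a TGF-beta family ligand, at 67.1 and 50.6 (-0.41).

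Of the remaining called rows, the mitochondrial cytochrome P450 gene Cyp12a5 (chromosome 3R, 14958174 to 14960426, dm3) stood at 45.4 FPKM in the control and 24.3 in the knockdown. It fell by 0.90 on the log2 scale at q = 0.0306 of the authors' deposited table. The non-coding gene CR43264 (chromosome X, 5712592 to 5734856) stood at 240 and 462 FPKM and rose by 0.95 at q = 0.0306 of the authors' deposited table. The row of mir-4940 and nwk (chromosome 3L, 9130960 to 9138793) stood at 21.3 and 0.0639 FPKM and was called at q = 0.0306 of the authors' deposited table. Its log2 fold change was -8.38, or -4.39 with 1 added to each FPKM. Its test statistic was -0.54, whereas the smallest absolute statistic among the other called rows was 2.12, for r. The merged row stood at 0.0623 FPKM in the samples labelled double knockdown. In the table of the samples labelled SIN3 knockdown a row of nwk alone stood at 0.0446 FPKM and was not called, q = 0.266 in the authors' deposited table. A value peculiar to the shared GFP samples and a fall in each knockdown cannot be told apart there, and the rows nearest to nwk, Dhpr and Use1, had 0.05 and -0.07. The limit of a shared control also applies to Sesn, Hsp23, Hsp27, Cyp12a5, CR43264 and the Eip71CD and RpL28 rows. Each of these moved in the same direction in every knockdown.

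Below the call, 10 rows on either side had the largest values at an unadjusted p under 0.05 of the authors' deposited table, Cg25C, Hsp70Bc, yellow-h and CG15695 above among them. CG9336 stood at 5.30 FPKM in the control and 2.50 in the knockdown (-1.09) and the adjoining row of CG31675 and CG9338 at 20.8 and 11.1 (-0.91), whereas bou stood at 2.97 and 9.40 (1.66). Others on the lower side were CG18473 (-0.97, at q = 0.0995 of the authors' deposited table), Reg-2 (-0.92), CG34454 (-0.85), CG4019 (-0.85), CG5397 (-0.83) and CG3703 (-0.79). Others on the higher side were Npc2g, of a sterol-binding family, at 11.7 and 23.1 FPKM (0.98), CG42566 (0.88), the row of CG18754 and SPE, the protease that activates the Toll ligand, at 5.92 and 10.9 (0.88), CG33461 (0.86), CG5589 (0.63), Bka (0.62) and CG5645 (0.62).

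**Figure D5:**
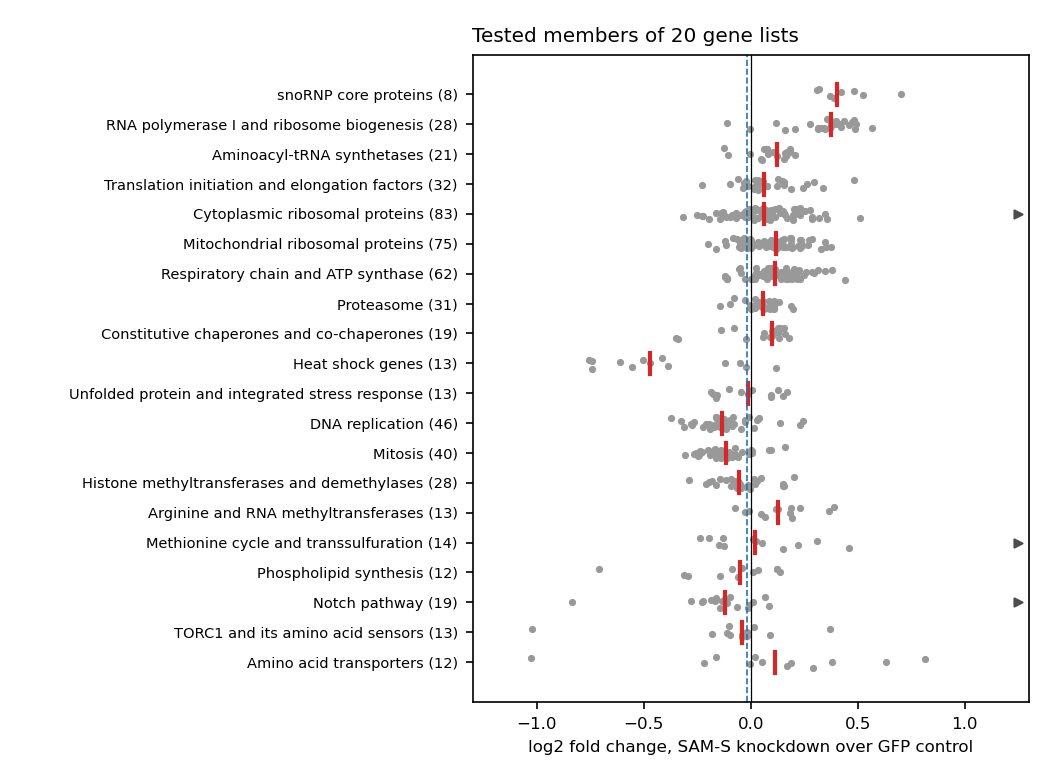
Log2 fold change of each tested member (gray points) of 20 gene lists, with the number tested in parentheses; red bars are list medians, the dashed line the median of all tested rows, and triangles at the right edge the RpL28, Eip71CD and E(spl)mbeta-HLH values that lie beyond the axis. The medians run from -0.47 for heat shock genes to 0.40 for snoRNP core proteins.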

How the data were processed

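RNA of S2 cells was profiled by sequencing. The tools were bcl2fastq and Cuffdiff and the build was dm3, per the submitters' processing notes (no versions). For the aligner and annotation, the choice is not given in the sources used. Per the file headers, the authors' deposited table gives FPKM per gene and group, a test statistic (a score), and a p-value and q-value. Depth is unknown: among 2991 untested single-gene rows at most 9 shared a ratio of their FPKM to within 0.001, so no whole-read steps were seen.

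Log2 fold changes were taken from the deposited FPKM without a pseudocount (Python 3.11.15, pandas 2.3.3, scipy 1.17.1). Printed starts are the deposited ones plus 1. The deposited q equal a Benjamini-Hochberg adjustment of p over the 7957 tested rows. The median standard error comes from the log2 fold change over the normal quantile of p, for rows with p under 0.99. Of the gene symbols, 5 had turned into dates and were restored at the same locus from another deposited table. Of the members of 45 gene lists, 16 were matched by a synonym in RefSeq names and 2 were not matched.

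The comparison, members and lists were chosen with earlier results of these data known. Genes named were Sam-S, every called row, the 10 highest and 10 lowest other rows with an unadjusted p under 0.05 and at least 5 FPKM in the higher and 0.5 in the lower group, up to 3 members per list and direction with an unadjusted p under 0.05, members of the methionine, polyamine, folate, phospholipid, snoRNP, small heat shock, E(spl), transporter and TORC1 lists, and elsewhere the member nearest the median. Lists carry no test. Alternatives were other thresholds, an expression minimum of 1 FPKM, single-symbol rows, a pseudocount of 1 and centring on the median row. A search for promoter motifs was planned and was not run, since no promoter sequence was used here.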

Additional observations from a re-analysis of the deposited data

How the results depend on the processing

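At a q under 0.01 of the authors' deposited table, 0 rows were higher and 0 lower, since the smallest q is 0.0306; at an unadjusted p under 0.01 there, 35 were higher and 32 lower. The other settings tried kept the counts of calls within 1.5 times: 8 and 8 at a q under 0.10, 7 and 5 with at least 1 FPKM in both groups, and 5 and 5 among single-symbol rows, where the merged Eip71CD, RpL28 and nwk rows drop out. An alternative chosen after seeing the data took a normal p from the deposited statistic and gave 7 and 4, but 8 of those 11 rows are small RNAs, and Sam-S and the RpL28 and Eip71CD rows are the shared calls. Fib, Sesn, Hsp23, Hsp27, path, r, E(spl)mbeta-HLH, Cyp12a5, CR43264 and the nwk row were not called in that setting, so similar counts hide different rows. Sam-S had -1.96, or -1.94 with a pseudocount of 1 or after centring. None of 66 named genes changed sign in either of these settings. Values of genes at low FPKM shrank with the pseudocount, such as Eaat1 from -1.02 to -0.73, CG9336 from -1.09 to -0.85 and bou from 1.66 to 1.39. Of 180 alternative list medians, 8 moved by more than 0.05. Of 45 list medians, those of fat body and gut, pyrimidine, RNA interference, tricarboxylic acid cycle, unfolded protein and snoRNA rows changed sign in 1 or more settings, each lying within 0.09 of 0. No paired analysis was possible because the deposited columns pool the replicates of a group, and for the same reason no replicate could be left out.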

Other observations

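Immune genes of S2 cells gave no call. Antimicrobial peptide genes, effectors of the immune response, had 1 of 9 above 0 and a median of -0.32, which moved to -0.14 with at least 1 FPKM in both groups, and no unadjusted p under 0.05 in the authors' deposited table. The median level of the peptide list, 5.05 FPKM, lay in the expression bin where 39.7% of all rows were above 0. CecA2, for a cecropin, stood at 43.3 FPKM in the control and 34.6 in the knockdown. Thioester protein genes, for opsonin-like secreted proteins, had 0 of 4 above 0 and a median of -0.19, with Tep1 at 14.5 and 13.0 FPKM. The Imd and Toll signalling genes upstream had 10 of 20 above 0 and a median of 0.01.

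Among detoxification genes, 15 of 40 cytochrome P450 genes (37.5%) and 7 of 26 glutathione transferase genes (26.9%) were above 0, with medians of -0.12 and -0.09. Cyp12a5 was the called member of the former. The P450 list had a median level of 5.84 FPKM, in the expression bin where 39.7% of all rows were above 0. The transferase list had 34.5 FPKM, in the bin where 46.4% were. GstE2 stood at 43.5 and 29.6 FPKM, with unadjusted p = 0.0172 in the authors' deposited table, and antioxidant genes had 12 of 15 above 0 with a median of 0.06. Fatty acid synthesis (3 of 11, median -0.08), autophagy (3 of 11, -0.04), ecdysone response (3 of 10, -0.08), dosage compensation (1 of 6, -0.13) and germline and piRNA genes (3 of 12, -0.13) stood mostly below 0. The median levels of these lists lay in expression bins where from 40.8% (ecdysone response) to 57.8% (fatty acid synthesis) of all rows were above 0. Proteasome genes stood mostly above 0 (26 of 31, 0.06). The vacuolar ATPase genes (12 of 22, 0.01) and the RNA interference machinery (5 of 11, -0.01) were balanced. In these 8 lists no member had an unadjusted p under 0.05 in the authors' deposited table.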
